A study of Bos taurus with 18 samples.

Results

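The regions described here are stretches of 2000 bp that tile 2 Mb of cattle chromosome 18 (UMD 3.1, positions 57141989 to 59141989), an interval centred on the lead association variant for gestation length. The ZNF613 gene and its flanks (58098688 to 58143930) were left out, together with the lead variant, which lies inside them. Of the 976 regions that lie wholly in the interval, 944 held at least 1 listed CpG position in 9 or more of the 18 bulls and were kept, out of 1186985 such regions in the genome. Membership rested on position and coverage and on no methylation value.

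Sperm of 18 adult, fertile and age-matched Holstein bulls was examined by whole-genome bisulfite sequencing, with 1 semen straw and 1 library per bull, so that the spread within a bull is not known. For gestation length, sire calving ease, body depth and cow conception rate, bulls were grouped by high or low genetic merit (predicted transmitting ability). This is what a sire passes to its progeny on average. For sire conception rate the labels give high and low only, and the study does not describe this grouping. Every group is a set of different animals of the same breed with no treatment. For gestation length (GL), H03, H09, L03 and L05 were high and H02, H05, L01 and L07 were low. For sire calving ease (SCE), H03, H07 and L02 were high and H01, H06 and L09 low. For body depth (BDE), H02, L03 and L08 were high and H05, H09 and L02 low. For cow conception rate (CCR), H08, H09 and L06 were high and H06, L08 and L09 low, and for sire conception rate (SCR), H01, H02 and H03 were high and L01, L02 and L03 low. Several bulls served in more than 1 comparison, so the comparisons are not independent, and H04 and L04 carry no group. The first letter of a bull's name is part of its label and is not its group. The identity of the cells as sperm was not checked against marker genes, because coordinates of genes on this build were not used here.

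In most mammalian cells, sperm included, CpG methylation is high over the bulk of the genome and low at many promoters and CpG islands. Zinc finger genes of the ZNF type, to which ZNF613 belongs, encode DNA-binding proteins and often lie in clusters of related copies. In the RefSeq table of a later assembly (ARS-UCD2.0), the named neighbours on one side of ZNF613 include HAS1, a hyaluronan synthase, SPACA6, a sperm protein needed for fertilization, ZNF175 and SIGLEC10, a lectin of immune cells. The neighbours on the other side include ZNF432, ZNF614, ZNF350, PPP2R1A, a scaffold subunit of protein phosphatase 2A, and a group of vomeronasal receptor genes (BOSTAUV1R417, BOSTAUV1R414, BOSTAUV1R416, BOSTAUV1R418 and BOSTAUV1R419). These names give the surroundings only, and no region below was assigned to a gene.

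Depth was uneven. The bulls listed between 2858992 and 22048556 CpG positions in the genome, each covered by at least 10 reads, and between 3557 (H01) and 21028 (H08) of these lay in the regions of the window. Read counts were listed for H01, H02, H03, L01, L02 and L03, where a position of the window had 16.3 reads on average against 13 in the genome. Depth could not be known in the 12 bulls without listed counts. A region held 9.94 listed positions per bull on average. Only 499 of the 35237 positions listed in any bull were listed in all 18, so that bulls were often measured at different positions of the same region. The 2 cytosines of a CpG, one on each strand, count as separate positions.

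The window was less methylated than the genome. The median level of a region, taken over bulls, had a median of 78.0% in the window, 93.3% in the rest of chromosome 18 and 93.3% in the genome. In the window 137 regions (14.5%) had a median under 20%, called low here, against 2.38% of regions in the genome and 4.47% in the rest of chromosome 18. A further 348 regions (36.9%) lay between 20% and 80%, against 14.9% in the genome, and 459 (48.6%) lay over 80%, against 82.7%. Of 1253 other stretches of 2 Mb with 500 or more regions, 17 (1.36%) held as large a share of low regions as the window, and the median stretch held 1.45%. These shares are descriptions without a test.

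The low levels were not spread evenly over the window. On the proximal side of the left-out stretch (smaller coordinates), 466 regions had a median level of 89.2%, 33 of them (7.08%) were low and 303 (65.0%) were over 80%. On the distal side, 478 regions had a median of 50.2%, 104 of them (21.8%) were low and 156 (32.6%) were over 80%. From 58341989 to 58441988 the 100-kb stretch was still highly methylated, with a median of 92.3% over 49 regions and 1 low region. The next 100 kb had a median of 45.3%, and from 58541989 to 58641988 the median was 23.4% over 42 regions, of which 15 were low and 0 were over 80%. From 58641989 to 58741988 levels were higher again, with a median of 72.9%, 6 low regions and 23 of 49 over 80%. The last 4 stretches of 100 kb had medians of 33.8%, 30.9%, 26.6% and 35.5%, with 11 to 17 low regions each. Close to the left-out gene, 27 of the 28 kept regions between 58041989 and 58141988 were over 80%, with a median of 94.0%. The first 100 kb beyond it, from 58141989 to 58241988, had a median of 73.0% with 7 low regions of 45, so that levels did not fall steadily with distance from the gene. Of the 497 regions in the 1 Mb after the window 72 (14.5%) were low, with a median level of 61.9%. In the 1 Mb before the window it was 57 of 484 (11.8%), with a median level of 92.6%.

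**Figure D1:**
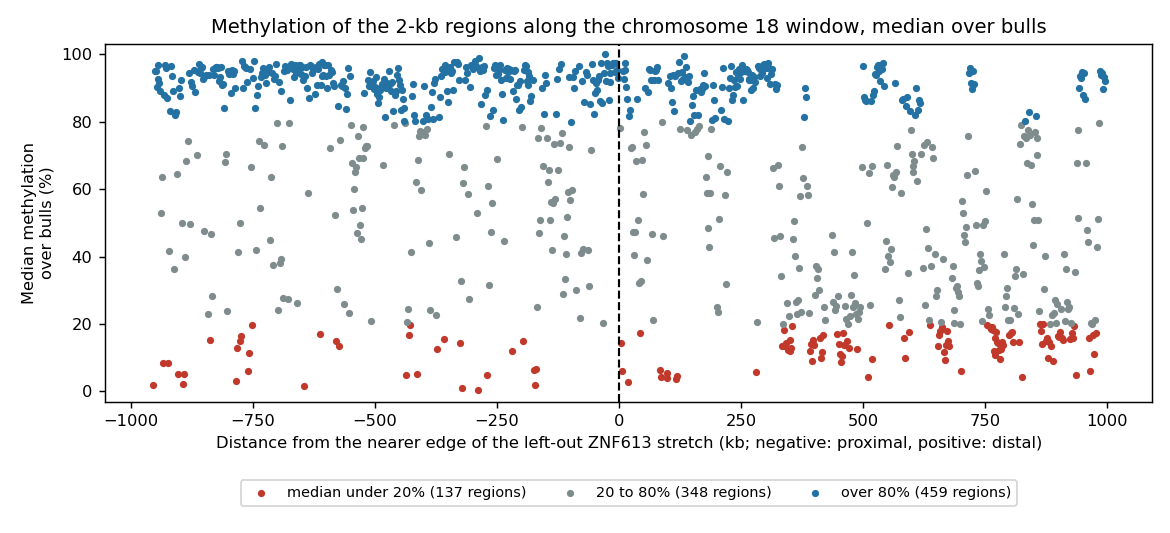
Each point is 1 of the 944 regions, placed by its distance in kb from the nearer edge of the left-out ZNF613 stretch (x axis) and by its median methylation over the bulls that list it, in percent (y axis). The 33 proximal low regions lie singly or in runs of at most 3, and low regions form a dense band over the farther part of the distal side, the side that holds 104 of the 137 low regions in all.

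**Figure D2:**
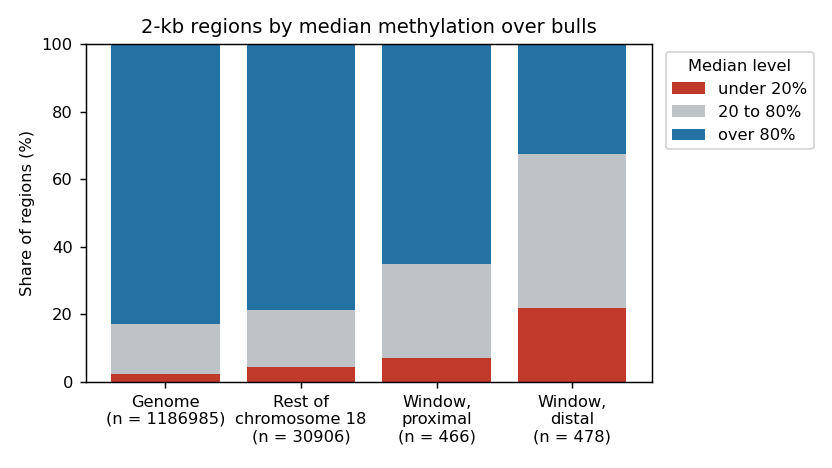
Bars show the share of regions, in percent, whose median methylation over bulls is under 20%, from 20% to 80% or over 80%, for the genome, the rest of chromosome 18 and the proximal and distal sides of the window. The low share is 2.38% in the genome and 21.8% on the distal side.

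Many low regions of the distal side lay in runs. Neighbouring low regions formed 27 runs of 2 or more, 21 of them distal, and the 8 longest (4 to 15 regions) were all distal. The longest covered 30 kb from 58902001 to 58932000, with 15 low regions in a row. Its mean level per bull was between 10.9% and 20.1%, with a median of 15.7% over 18 bulls. The runs from 58594001 to 58606000 and from 58808001 to 58820000 each held 6 regions and had medians over bulls of 12.9% and 15.3%. The proximal side had no run of more than 3 regions. Runs of 5 or more held 23.4% of the low regions of the window and 18.5% of those of the genome, where the longest run had 102 regions.

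Low regions were lower on the proximal than on the distal side. Low regions had a median level of 8.45% proximally and 14.4% distally, and 97 of the 137 (70.8%) lay from 10% to 20%, against 54.5% of the 28234 low regions of the genome. Among CpG positions listed in 9 or more bulls, 57.7% of the 385 positions in proximal low regions had a median under 5%, against 38.6% of the 694 in distal low regions and 36.5% of those in low regions of the genome. In distal low regions 56.8% of positions lay from 5% to 30%, 3.75% from 30% to 70% and 0.865% at 70% or more. Positions at 70% or more are few in low regions by their choice. They made up 1.82% in proximal low regions and 1.08% in low regions of the genome. Proximal low regions held more listed positions, with a median of 12.9 per bull against 8.78, and more listed reads, with 20.8 per position against 15.6. The part of depth and CpG number in these levels was not tested.

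A short stretch of the proximal side was rich in listed positions. Of the 30 regions with 30 or more listed positions per bull, 24 lay between 57541989 and 57741988. The 30 regions had 29.0 listed reads per position on average, against 13 in the genome, and the part of this depth in their levels was not tested. The region from 57662001 to 57664000 had a median of 4.93%, with all bulls between 2.43% and 6.995%, and 86.4 listed positions per bull. Its neighbour from 57660001 to 57662000, with 56.5 positions, had a median of 79.5% and a range of 70.5% to 85.3%. The step between these neighbours was larger than the spread between bulls and was present in all 18 animals.

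The same landscape was found in every bull. The share of low regions in the window was between 12.7% and 19.9% per bull, and in the genome between 2.05% and 3.99%, and the window's share was the higher in 18 of 18 bulls. The mean level of proximal regions ranged from 72.4% to 78.0% over bulls and that of distal regions from 47.5% to 56.6%, so that the sides did not overlap. At the 499 positions listed in all bulls, the mean ranged from 50.7% (L06) to 62.5% (H08), with a median of 58.8%. L06 also had the lowest mean over the regions of the genome, 81.9%, where the median bull had 85.3%. The interquartile range over bulls, the width of the middle part of their values, had a median of 8.81 percentage points per region in the window and 6.18 in the genome.

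**Figure D3:**
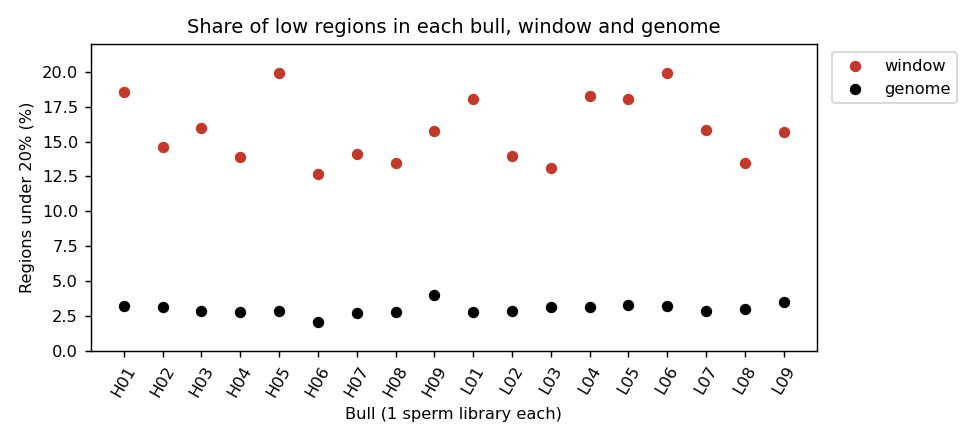
Points give for each of the 18 bulls (x axis, 1 library each) the percent of listed regions with a level under 20% (y axis), in the window and in the genome. Every bull has a higher share in the window, between 12.7% and 19.9%, than in the genome, between 2.05% and 3.99%.

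The next comparison asked whether the window differed between bulls of high and low GL. Averaged over the regions of the window, it did so by less than the SD of either group. The mean level of window regions was 64.5% ± 1.64 (SD, n = 4) for the high-GL group, and the low-GL group had 63.0% ± 2.12 (SD, n = 4) (exact permutation test, two-sided, p = 0.286). At the positions common to all bulls it was 59.0% ± 1.87 and 56.1% ± 2.73 (exact permutation p = 0.143). That difference, 2.90 points, was larger than either SD, and the groups overlapped. Over the regions of the genome the mean was 85.5% ± 1.05 and 84.8% ± 0.501. In the other comparisons the mean level of window regions differed by 0.963 points for SCE, 2.72 for BDE, -2.35 for CCR and -0.446 for SCR. Exact permutation p lay between 0.2 and 0.7, where 3 against 3 bulls cannot go below 0.1.

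Region by region, reads were compared by a logistic regression over the whole genome, with q under 0.01 and a pooled difference over 5 points needed for a call. This test takes reads, not bulls, as its unit, and it counts differences between bulls as differences between groups. For GL, 74 of 584 tested window regions (12.7%) were called, against 8.75% of regions in the genome. Levels were higher in high-GL bulls in 49 of them (8.39% against 4.99% in the genome) and lower in 25 (4.28% against 3.75%). In 25 regions (4.28% against 3.3% in the genome) the values of the high and low bulls did not overlap, 21 with the high bulls above (3.596% against 2.4%) and 4 below (0.685% against 0.897%). limma, which takes the spread between bulls as its error, called 0 window regions for GL, and 0% of the genome. The smallest limma adjusted p in the window was 0.9803, with 37 of 584 regions at an unadjusted p under 0.05 (6.34%, against 4.91% in the genome).

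The GL calls of the read test were also counted by the level of the region, a split made after the calls were seen. Calls were most common at intermediate levels in both window and genome. Among low regions 10 of 86 (11.6%) were called in the window against 14.2% in the genome. Among regions from 20% to 80% it was 45 of 203 (22.2%) against 26%, and among those over 80% it was 19 of 295 (6.44%) against 5.86%. Intermediate regions were also those whose CpGs differed most from each other, with a median SD between positions of 20.2 points, against 10.96 in low and 8.44 in high regions.

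In the other comparisons the read test also called a larger share of the window than of the genome, most often higher in high bulls for SCE, BDE and SCR and lower for CCR. For SCE 43 of 480 regions (8.96%) were called against 6.18% in the genome, 17 lower (3.54% in both window and genome) and 26 higher in high bulls (5.42% against 2.64%). For BDE 47 of 529 (8.88%) were called against 7.57%, 14 lower (2.65% against 2.86%) and 33 higher (6.24% against 4.71%). For CCR 93 of 582 (16.0%) were called against 11.1%, 70 lower (12.03% against 8.48%) and 23 higher (3.95% against 2.58%). For SCR 55 of 460 (11.96%) were called against 8.68%, 22 lower (4.78% against 4.54%) and 33 higher (7.17% against 4.13%). Non-overlapping groups were found in 60 regions for SCE (12.5% against 9.26%), 53 for BDE (10.02% against 10.1%), 66 for CCR (11.3% against 9.94%) and 40 for SCR (8.70% against 9.13%). limma called 0 window regions in each of these comparisons as well, with smallest adjusted p between 0.693 (CCR) and 0.99998 (BDE), and an unadjusted p under 0.05 was found in 4.17% (SCE), 6.05% (BDE), 5.15% (CCR) and 5% (SCR) of regions. In the genome it was 3.81%, 4.41%, 4.11% and 4.03%.

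Split by level, the window again had smaller shares of calls than the genome among low and intermediate regions, in all 4 of these comparisons. Among low regions these were 7.41% against 10% for SCE, 8.86% against 12.2% for BDE, 10.6% against 16.9% for CCR and 7.59% against 12.5% for SCR. At intermediate levels they were 14.8% against 16.4% for SCE, 16.6% against 21.7% for BDE, 28.6% against 31.1% for CCR and 21.7% against 22.3% for SCR. At high levels they were 4.93% against 4.5% for SCE, 3.11% against 5.25% for BDE, 7.86% against 7.78% for CCR and 6.36% against 6.5% for SCR.

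**Figure D4:**
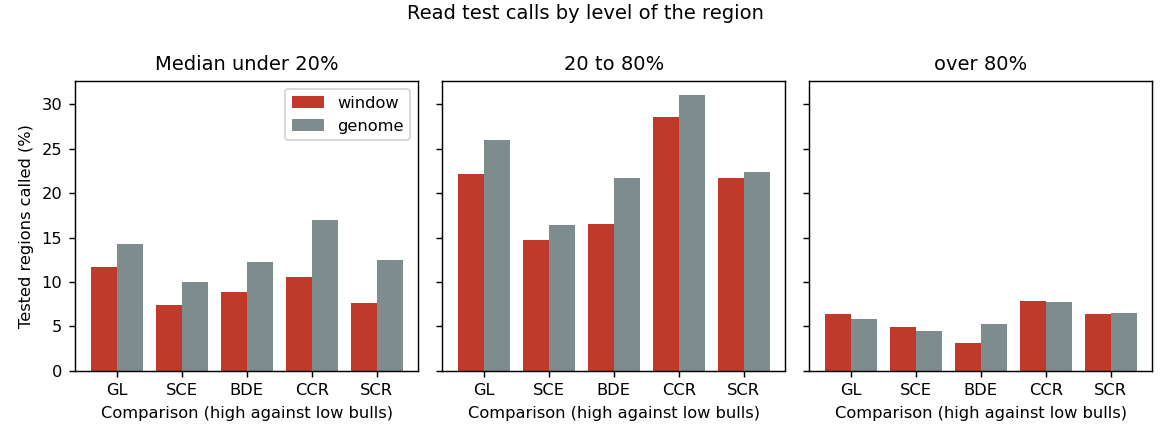
Bars give the percent of tested regions called by the read test (y axis) for each of the 5 comparisons (x axis), in the window and in the genome, with a panel for each class of median level. At intermediate levels, where calls are most common, the window lies below the genome in all 5 comparisons, for GL at 22.2% against 26%.

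Regions that were called and in which the groups did not overlap are described next, with the largest differences. For GL there were 13 such regions (2.23% against 1.38% in the genome), 12 with higher levels in high bulls (2.05% against 0.996%) and 1 with lower levels (0.171% against 0.383%). That the groups do not overlap in them follows from this choice. The loss lay at 57410001 to 57412000, where the high-GL bulls had 27.6% (H03), 20.6% (H09), 18.6% (L03) and 17.99% (L05) and the low-GL bulls 35.6% (H02), 36.0% (H05), 31.6% (L01) and 55.2% (L07). All high bulls were lower, by 18.1 points when reads were pooled (read test q = 5.3e-08), and limma gave an adjusted p of 0.9803. The 8 bulls listed from 4 to 26 of its positions, and at the 17 positions listed in both groups the difference was -5.18 points, with a q of 0.365. Over all listed positions, the difference of means was -10.5 points within the bulls with listed coverage and -26.3 within the others. The largest gain lay at 58894001 to 58896000, in the distal band, with 67.3%, 66.9%, 69.1% and 84.1% in the high bulls in the same order and 45.5%, 36.5%, 39.3% and 62.5% in the low bulls. There the pooled difference of 24.4 points (q = 7.0e-10) fell to 6.57 points at the 11 matched positions (q = 0.347), and H02 listed 1 position there. Over all listed positions, the difference of means was 25.8 points within the bulls with listed coverage and 26.0 within the others.

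The second gain for GL was nearly as large at matched positions. At 58880001 to 58882000, also in the distal band, the high bulls had 49.2%, 37.0%, 39.8% and 59.6% and the low bulls 35.6%, 18.2%, 24.0% and 30.9%. The lowest high bull (H09) and the highest low bull (H02) were 37.0% and 35.6%, so that the groups were only just apart. The pooled difference was 22.4 points (q = 1.5e-09) and that at 19 matched positions 20.6 points (q = 1.2e-06). The difference of means over all listed positions was 14.7 points within the bulls with listed coverage and 23.7 within the others. limma gave an adjusted p of 0.9803, as for the 2 regions above.

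In the comparisons with 3 bulls a group the largest differences were smaller at matched positions. For SCE the region from 58958001 to 58960000 was lower in high bulls by 23.9 points and by 10.6 at 7 matched positions (q = 0.413). For the region from 57934001 to 57936000 the SCE gain of 23.5 points was 16.9 at 10 matched positions (q = 0.0240), short of the q needed for a call. A split by listed coverage sets H03 and L02 against H01 alone, which listed 2 and 3 positions in these regions, and H07 alone against H06 and L09. Over all listed positions this split gave -38.7 and -16.2 points in the former and 42.1 and 13.5 in the latter region. These values rest on 1 bull in an arm. For BDE the largest gain of the window, 65.1 points at 58034001 to 58036000, became 1.15 points at the 4 matched positions. The 6 bulls listed between 1 and 22 of the 46 positions of that region, of which 39 had a median under 30% and 7 of 70% or more. The BDE loss at 57202001 to 57204000 went from -17.8 to -0.180 points, and its call was lost without H05 (-10.7 points). The split by listed coverage again left 1 bull in an arm (L02 among those listed, L08 among the others). Over all listed positions it gave 87.7 and 26.4 points for the BDE gain and -2.60 and -22.7 for the BDE loss.

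For CCR and SCR the named differences were also smaller at matched positions. The CCR loss at 57836001 to 57838000 went from -41.7 to -3.29 points at 11 matched positions, and its call was lost without H06 (-28.4 points). The CCR gain at 57186001 to 57188000 changed sign, from 39.8 to -3.57 points at 4 positions, and so did the SCR gain at 57462001 to 57464000, from 37.0 to -3.03 points at 8 positions. The SCR loss at 57388001 to 57390000 went from -33.1 to -0.0555 points, and this region held 34 positions with a median under 30% beside 39 of 70% or more. Of the 11 named regions, 1 passed both thresholds at matched positions. These were chosen for the largest pooled differences, which by itself favours smaller differences at matched positions. Of all 13 GL regions that were called and without overlap, 7 were also called at matched positions, as given below. All 11 had limma adjusted p between 0.693 and 0.99998.

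**Figure D5:**
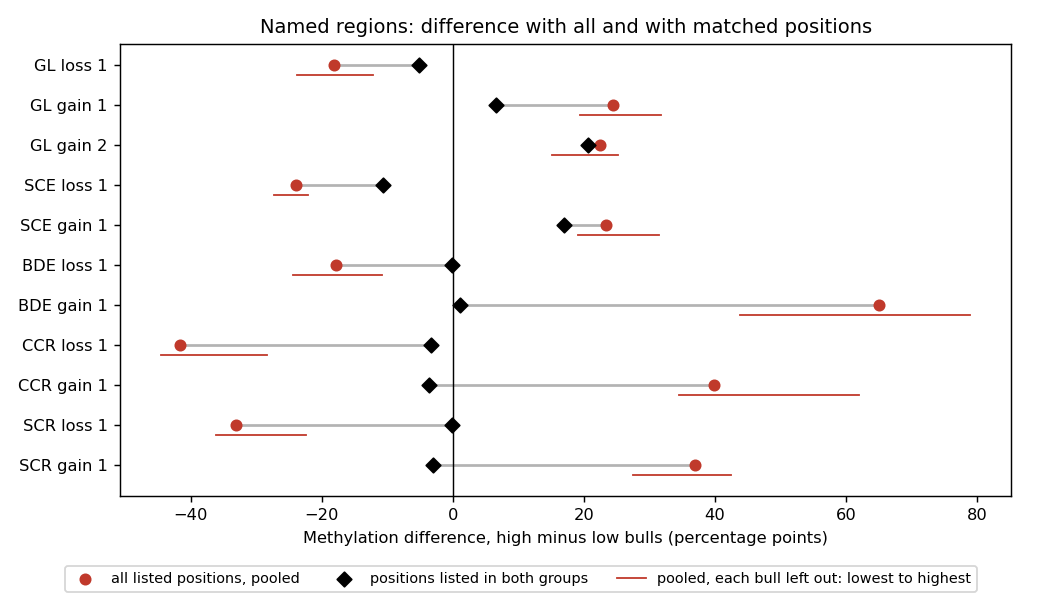
For the 11 named regions (rows), circles give the difference of high minus low bulls in percentage points (x axis) with all listed positions pooled, diamonds the same at positions listed in both groups, and thin lines the lowest and highest pooled value when each bull is left out. In GL gain 2 the circle and the diamond lie close together, at 22.4 and 20.6 points, whereas the diamonds of the BDE, CCR and SCR regions lie within 4 points of 0.

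At matched positions fewer regions were called than by the read test in all 5 comparisons. Comparing reads position by position (Cochran-Mantel-Haenszel test) called 23 of 584 window regions for GL (3.94% against 2.19% in the genome), 22 of them higher in high-GL bulls (3.77% against 1.45%) and 1 lower (0.171% against 0.737%). For SCE it called 9 regions (1.88% against 1.31%), 7 higher (1.46% against 0.601%) and 2 lower (0.418% against 0.707%) in high bulls. For BDE it called 9 (1.72% against 1.6%), 8 higher (1.53% against 1.03%) and 1 lower (0.191% against 0.57%). For SCR it called 10 (2.18% against 2.51%), 4 higher (0.873% against 1.15%) and 6 lower (1.31% against 1.36%). For CCR it called 20 (3.44% against 4.4%), of which 19 were lower in high-CCR bulls (3.26% against 3.59%) and 1 was higher (0.172% against 0.813%). By level, the matched test called 0 of 86 low regions for GL (0% against 0.48% in the genome), 15 of 203 intermediate ones (7.39% against 4.71%) and 8 of 295 high ones (2.71% against 1.85%). Unlike the calls of the read test at intermediate levels, these shares were above the genome's at intermediate and high levels, and the differences in share were not tested. Called by the read test as well were 21 of the 23 regions for GL, 8 of 9 for SCE, 7 of 9 for BDE, 17 of 20 for CCR and 6 of 10 for SCR, all in the same direction except 1 for BDE. That region, 57972001 to 57974000, had the largest BDE gain at matched positions (36.7 points at 6 positions) but a pooled difference of -17.4 points, with 94.7% (L03), 90.9% (H02) and 11.9% (L08) in high and 69.2% to 73.5% in low bulls. The groups did not overlap in 7 of the 23 GL regions, which were called for a difference between these groups. The same share among the matched calls of the genome was not counted. Like the read test, this test does not use the spread between bulls.

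Of the 23 GL calls at matched positions, 11 lay in the proximal stretch rich in listed positions, with 5 among the 37 tested regions from 57541989 to 57641988 and 6 among the 40 from 57641989 to 57741988, all 11 higher in high-GL bulls. Regions of these 100-kb stretches held 16.4 and 26.6 listed positions per bull, against 9.94 in the window, so that each was measured on more reads. The longest row of neighbours was chosen after the values were seen and is given without a test: 4 regions covering 8 kb from 57688001 to 57696000. Over them the high-GL bulls had 82.1% (H03), 77.8% (H09), 75.4% (L03) and 85.9% (L05), and the low-GL bulls 72.1% (H02), 63.9% (H05), 62.4% (L01) and 70.3% (L07). Region by region, the groups overlapped in those starting at 57688001, 57692001 and 57694001 and not in that at 57690001. Over all 4 regions together the groups did not overlap, and the means were 80.3% ± 4.68 (SD, n = 4) and 67.2% ± 4.77 (SD, n = 4). At the 63 positions listed in all 8 bulls the means were 79.8% ± 3.47 and 66.0% ± 5.78, and the difference was 11.99 points within the bulls with listed coverage and 15.6 within the others. The 10 bulls outside the GL groups ranged from 60.6% to 88.6%, a wider range than that of the 8 GL bulls. Listed coverage was 29.1 reads per position in the 6 bulls that list it.

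A neighbouring stretch was lower in high-CCR bulls. It held 5 neighbouring regions over 10 kb, from 57664001 to 57674000, and began at the end of the unmethylated region at 57662001. The 3 high-CCR bulls had 20.6% (H08), 23.0% (H09) and 17.0% (L06) there and the low-CCR bulls 26.9% (H06), 29.8% (L08) and 27.8% (L09). At the 122 positions listed in all 6 bulls the means were 18.2% ± 3.30 (SD, n = 3) and 23.9% ± 1.21 (SD, n = 3), a difference of -5.69 points. The 5 regions differed by -5.73 to -13.8 points at matched positions. In the one from 57672001 to 57674000, with the largest difference, the groups overlapped (H08 42.5%, H06 42.2%), and in that from 57664001 to 57666000 H08 had 3.29% where H09 and L06 had 19.4% and 18.1%. The region from 57668001 to 57670000 had 10.7% ± 1.195 in high and 21.0% ± 1.66 in low bulls, and that from 57666001 to 57668000 had 17.2% ± 3.35 and 29.1% ± 2.16, with -8.66 and -8.17 points at matched positions. The 12 other bulls lay between 18.2% and 30.4%. Listed coverage was 33.4 reads per position in the 6 bulls that list it, of which 0 are in the CCR groups, and L06 had the lowest mean of all bulls over the genome, as given above. All 3 high-CCR bulls lay below all low-CCR bulls, which leaving out L06 cannot change. The part of the low genome-wide level of L06 in this difference was not tested. These neighbours were also picked after their values were seen and carry no test, and what the high coverage does to the differences was not tested.

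The long low runs of the distal band were compared over the 8 runs and 5 traits by 40 exact permutation tests (two-sided). Over these 40 tests no adjusted p under 0.1 was possible, whatever the differences, so that the values are given as a description. In single regions of the genome, which unlike runs are not pooled, groups did not overlap in 3.3% for GL. It was 9.26% for SCE, 10.1% for BDE, 9.94% for CCR and 9.13% for SCR. In the runs the smallest unadjusted p was 0.0857, and groups did not overlap in 3 of the 40. These were all SCR, with 12.6% in high and 17.3% in low bulls in the run at 58594001 to 58606000, 19.2% and 13.7% at 59006001 to 59014000, and 12.7% and 16.4% at 59018001 to 59026000. At the 1 position of the run at 59006001 listed in all 6 SCR bulls, the order was the opposite, 10% in high and 15.4% in low bulls, with overlap. In the 30-kb run the high-GL bulls had 15.8% on average and the low-GL bulls 13.6% (exact permutation p = 0.229), and the differences of the other traits were between -1.12 and 3.33 points. At the few positions of this run listed in all bulls of a comparison the differences were -2.04 points for GL (3 positions), 2.08 for SCE (4), -6.91 for BDE (1), 5.52 for CCR (1) and 6.60 for SCR (4, without overlap). The sign at these positions was thus the opposite for GL, BDE, CCR and SCR. So few positions cannot tell whether the direction of these small differences depends on the positions compared. The smallest p came from the run at 58554001 to 58562000, with 16.4% in high-GL and 12.7% in low-GL bulls.

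Of the regions next to the left-out gene, the first distal one was measured on few positions. Proximally, 58094001 to 58096000 had a median of 95.4% and 58096001 to 58098000 of 93.0%, with a range of 82.5% to 98.5% over 18 bulls in the latter. Distally, 58144001 to 58146000 had a median of 78.0% over 17 bulls and values from 0% to 100%, on 50 values in all. The next region, 58146001 to 58148000, was low, with a median of 14.4% and a range of 0% to 50%. Over the regions of the genome, groups did not overlap in 3.3% for GL and in 9.13% (SCR) to 10.1% (BDE) for the other traits. In the 20 tests of these 4 regions next to the gene, groups did not overlap in 4, of which 2 were at 58146001 to 58148000. The high-SCR bulls had 27.3% (H01), 27.4% (H02) and 19.2% (H03) and the low-SCR bulls 3.33% (L01), 4.13% (L02) and 0% (L03), a difference of 22.1 points. The high-SCE bulls had 19.2% (H03), 10.4% (H07) and 4.13% (L02) and the low-SCE bulls 27.3% (H01), 32.6% (H06) and 50% (L09), a difference of -25.4 points. Both had an exact permutation p of 0.1, the smallest possible, and an adjusted p of 0.667. The other such cases were SCR at 58096001 to 58098000 (5.88 points) and BDE at 58144001 to 58146000 (-47.8 points, with 2 low bulls). No adjusted p under 0.105 was possible over these 20 tests, whatever the differences, so that the tests could not make a call.

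The spread between bulls was compared where every bull had several positions. Of 130 window regions with 3 or more positions in each of the 18 bulls, 2 (1.54%) had an interquartile range over 20 points, against 2.62% in the genome. The median interquartile range of these same regions was wider in the window, 5.56 points against 4.01, without a split by level. The widest was 57202001 to 57204000, the BDE loss above, with bulls from 24.5% to 74.3%. Of its 78 positions 15 had a median under 30% and 30 of 70% or more, and 0 were listed in all bulls. At 57456001 to 57458000 the median was 96.3% while H01 had 24.7% and H09 48.4%, and again 0 of its positions were common to all bulls. The third, 57984001 to 57986000, ranged from 24.7% to 67.4%, and at its 3 common positions from 30.1% to 71.0%.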

How the data were processed

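Sperm DNA of 18 bulls was analysed, 1 library each. Per the labels and the study's methods, the authors checked and trimmed reads (FastQC 0.11.2, Trim Galore 0.4.0), mapped them to UMD 3.1 with Bowtie2 and extracted methylation with Bismark 0.14.5, keeping positions with 10 or more reads. The authors deposited the percent of methylated reads per CpG position for all bulls and the read count per position for 6 of them. The 2 cytosines of a CpG count as separate positions.

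Percentages were averaged per bull and region of 2000 bp, and "median level" is the median over the bulls that list it. The members and lists were chosen with earlier results of these data known. Groups came from the labels. For each trait, methylated and unmethylated reads were compared over the whole genome by a logistic regression and likelihood ratio test, in regions where every bull of the comparison listed a position. Each position counted as 10 reads, since counts are not listed for 12 bulls. SCR used the listed counts. q was the Benjamini-Hochberg value times a share of unchanged regions, estimated by a simplified SLIM method (median slope of the p distribution over 10 segments from 0.1 to 1). limma 3.58.1 (R 4.3.3) was fitted to log2 ratios of methylated to unmethylated reads with 1 read added to each, computed from the deposited values. Matched positions were those listed in 1 or more bulls of each group. Single runs and regions were tested by exact permutation (two-sided) with Benjamini-Hochberg adjustment over units and traits. Scripts ran in Python with NumPy 2.4.6 and SciPy 1.17.1. The read test, limma and the matched test were run on simulated reads drawn without differences between bulls of a group. That simulation does not cover the spread between bulls seen here.

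Named were the largest losses and gains among called regions without overlap (2 each for GL, 1 each for other traits), the 8 longest runs of 2 or more low regions, the 2 nearest regions on each side of the left-out stretch and the 3 regions with the largest interquartile range. GL had 1 such loss. The rows of neighbours called at matched positions and the regions rich in CpGs were picked after their values were seen, as was the split of calls by level. No gene of the later assembly was placed on the regions, and sequences are not printed here. Alternatives were 13 reads per position (SCR 10), 3 or more positions per bull, Benjamini-Hochberg alone, partly overlapping regions, limma, matched positions, 12 or more listed reads (SCR), other definitions of low, bulls with and without listed coverage apart, each bull left out and, added after the data were seen, limma with the number in the bulls' names as a block (CCR, SCR).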

Additional observations from a re-analysis of the deposited data

Results flagged for a closer look

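In groups of 4 bulls, a bull whose distance from the nearest other bull took up most of the group's range was picked out by Dixon's criterion at 95%. This was found 5 times in 28 groups, where chance alone gives about 1 in 20 independent groups. The groups hold the same GL bulls over and again, and some of the regions were named for their GL values. The count thus cannot be set against that rate. In the runs at 58534001 and 58808001 a bull listed 3.94 and 4.44 positions per region on average. L03, a high-GL bull, had 28% in the low run from 58808001 to 58820000, where the other high-GL bulls had 11.5% to 12.3%. H03, also high-GL, had 12.4% in the 30-kb run, against 16.7% to 17.4%. L05 had 84.1% in the largest GL gain, at 58894001 to 58896000, where the other high-GL bulls had 66.9% to 69.1%. L01, a low-GL bull, had 4.55% in the run from 58534001 to 58544000, against 11.4% to 12.3%, and 82.8% in the region from 58096001 to 58098000 next to the left-out stretch, against 92.4% to 93.1%.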

How the results depend on the processing

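Requiring 3 or more positions in every bull left 188 to 312 regions to test. Called were 40 for GL (12.8% against 8.77% in the genome), 22 for SCE (10.8% against 6.63%), 21 for BDE (8.4% against 8.15%), 46 for CCR (15.7% against 11.4%) and 26 for SCR (13.8% against 9.33%). Non-overlapping were 17 for GL (5.45% against 3.19%), 24 for SCE (11.8% against 9.24%), 19 for BDE (7.6% against 10.4%), 33 for CCR (11.3% against 10.3%) and 14 for SCR (7.45% against 9.24%). Matched positions left 23 (GL), 9 (SCE), 9 (BDE), 20 (CCR) and 10 (SCR) calls, and limma left 0 in all 5 comparisons. With 13 reads per position SCE had 66 (13.8% against 10.1%) and BDE 84 calls (15.9% against 11.6%), and with 12 or more listed reads SCR had 18 of 151 (11.9% against 10.2%). At positions listed in every bull, 6 (GL, 5.77% against 1.98%), 14 (SCE, 11.97% against 7.37%), 8 (BDE, 7.14% against 7.55%), 11 (CCR, 6.92% against 7.37%) and 2 (SCR, 1.79% against 7.19%) regions did not overlap, of 104 to 159 with such a position. Low regions numbered 56 of the 351 listed in all 18 bulls (15.95% against 2.91%) and 40 at a limit of 10% (4.24% against 1.08%). With each bull left out, calls for GL ranged from 67 (11.3% against 8.42%) to 84 (14.1% against 8.87%). SCE calls ranged from 34 without H07 (6.85% against 6.17%) to 69 without H01 (10.03% against 6.8%). BDE calls ranged from 51 (9.46% against 7.06%) to 72 without H02 (12.9% against 7.55%). CCR calls ranged from 81 (13.8% against 8.53%) to 132 (22.6% against 16.9%), and SCR calls from 50 (10.6% against 8.87%) to 77 (11.7% against 9.38%). The number of tested regions changed as well, for SCE from 480 with all bulls to 688 without H01. The window's share of calls was the larger in each of these fits. Non-overlapping regions then ranged from 36 (6.09% against 5.7%) to 55 (8.55% against 6.13%) for GL. For SCE it was 90 (18.1% against 17.5%) to 152 (22.1% against 18.6%). For CCR it was 118 (17.82% against 17.79%) to 143 (21.6% against 19.9%). For BDE it was 99 (18.4% against 19.3%) to 128 (21.2% against 20.9%). For SCR it was 75 (14.9% against 17.8%) to 111 (16.8% against 18.4%). These counts exceed those with all bulls because fewer bulls have to stand apart. For GL the window's share was below the genome's without H03 (6.62% against 6.75%) and without H09 (6.92% against 7.1%). For BDE and SCR it was above in some fits and below in others. Runs and flanks gave 0 with all bulls and with each left out, but no adjusted p under 0.1 was possible in any of these, so that this says nothing about stability. The flanks had no position listed in every bull of a comparison, so that alternative gave no value. Of the 11 named differences 8 fell short of a threshold at matched positions and 2 changed sign, the CCR gain (-3.57 points) and the SCR gain (-3.03). With each bull left out, 70 of 72 fits of named regions kept direction and call. These regions were chosen as called and without overlap, so that this largely follows from the choice and says little about stability. Except where a setting leaves fewer regions or bulls, the cause was not tested. The high and low bulls of CCR and of SCR carry the same numbers in their names (as H01 and L01), though they are different animals. With this number as a replicate block, chosen after seeing the data, limma called 0 window regions for CCR and 0 for SCR, as without it. In the genome it called 1 region for CCR (smallest limma adjusted p 0.0400) and 0 for SCR. An unadjusted limma p under 0.05 was found in 30 window regions for CCR (5.15% against 3.77% in the genome). For SCR it was found in 22 (4.78% against 4.15%). Deviations from the group means of same-numbered bulls had correlations from -0.0514 to 0.0106 across regions, so that the numbers did not pair the bulls. The other comparisons share fewer than 2 numbers. With 3 or 4 bulls a group, 10 to 100 listed reads per position in 6 bulls and unknown depth in 12, small differences are not detectable.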

Other observations

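H04 and L04, which carry no group, showed the same landscape as the other bulls. Their mean levels were 76.4% and 74.3% over proximal regions and 53.1% and 50.7% over distal regions, and 13.9% and 18.3% of their regions were low. Of the 137 low regions, 5 had both neighbours over 80%, 4 of them proximal and 1 distal, with levels from 1.75% to 17.0%. Of the low regions, 40 were under 10%, and these held more listed positions per bull (median 12.7) than the 97 from 10% to 20% (median 8.67).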
